A study of Mus musculus with 6 samples.

Results

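The T cell receptor complex and the genes around its activation were examined in brown adipose tissue (BAT) as 10 genes named by symbol: *Cd3d*, *Cd3e*, *Cd3g*, *Cd247*, *Cd4*, *Cd8a*, *Cd8b1*, *Lck*, *Cd2* and *Cd69*. They are 10 of the 47729 genes in the deposited tables, and each symbol matched 1 gene. The group was chosen by counts and TPM of HFD-fed against LFD-fed mice in these same libraries, so differences of its genes between diets are given as a description, with no test. Of the 10 genes, 9 were among the 17668 genes with enough counts to be tested, and *Cd3e* was not.

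The tissue was interscapular BAT of wild type male C57BL/6J mice, with 3 mice on a standard rodent diet, here called LFD, and 3 mice on a 45% high-fat diet, here called HFD. The diets were fed for 4 weeks, from 6 to 10 weeks of age. All 6 mice share strain, genotype and sex, and within each diet the mouse with the most, the middle and the least body fat was taken, so the spread of a diet is not that of randomly drawn mice. RNA was depleted of ribosomal RNA and sequenced in single reads of 75 bases.

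A T cell recognises peptides on other cells through the variable receptor chains, which cannot signal themselves and depend on the CD3 chains and the CD3 zeta chain held beside them. The CD4 and CD8 co-receptors bind the presenting molecule and bring the kinase LCK to the complex, where it phosphorylates the CD3 tails and starts the cascade that ends in activation. Adipose tissue holds resident T cells beside many macrophages, and in whole tissue RNA a few T cells contribute few reads.

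The promoter windows of the CD3 cluster and of *Lck* are shown because *Cd3g* and *Cd3d* start 1355 bases apart on opposite strands and yet had different values below, and because *Lck* is known to be transcribed from a proximal and a distal promoter. *Cd3g*, *Cd3d* and *Cd3e* span 40056 bases of chromosome 9. The windows are those of RefSeq on GRCm38.p6, each running 5′ to 3′ along the gene from 250 bases before its start to 50 bases after. They lie at chr9:44980382-44980681 (minus strand) for *Cd3g*, chr9:44981536-44981835 (plus strand) for *Cd3d*, chr9:45009562-45009861 (minus strand) for *Cd3e*, and chr4:129573592-129573891 and chr4:129558323-129558622 (both minus strand) for *Lck*. Capitals mark the letters AGGAAG, the core bound by Ets factors, or CTTCCT on the other strand, and the letters TGTGGT, the core bound by Runx factors, or ACCACA on the other strand.
Cd3g: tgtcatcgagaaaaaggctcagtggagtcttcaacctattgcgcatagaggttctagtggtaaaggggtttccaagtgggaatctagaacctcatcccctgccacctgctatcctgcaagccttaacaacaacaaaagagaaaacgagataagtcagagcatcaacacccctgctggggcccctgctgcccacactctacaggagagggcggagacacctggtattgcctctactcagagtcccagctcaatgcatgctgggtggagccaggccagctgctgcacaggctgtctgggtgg
Cd3d: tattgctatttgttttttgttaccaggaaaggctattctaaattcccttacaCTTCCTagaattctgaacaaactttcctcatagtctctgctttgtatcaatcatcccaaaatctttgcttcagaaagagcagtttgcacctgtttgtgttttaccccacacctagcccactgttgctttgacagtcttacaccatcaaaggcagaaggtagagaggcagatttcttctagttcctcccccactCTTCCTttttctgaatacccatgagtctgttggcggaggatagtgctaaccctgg
Cd3e: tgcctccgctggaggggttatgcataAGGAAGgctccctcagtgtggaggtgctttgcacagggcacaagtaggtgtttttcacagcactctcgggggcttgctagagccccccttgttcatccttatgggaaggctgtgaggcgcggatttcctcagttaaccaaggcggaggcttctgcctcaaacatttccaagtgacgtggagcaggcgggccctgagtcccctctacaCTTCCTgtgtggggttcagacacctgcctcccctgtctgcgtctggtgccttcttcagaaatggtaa
Lck upstream window: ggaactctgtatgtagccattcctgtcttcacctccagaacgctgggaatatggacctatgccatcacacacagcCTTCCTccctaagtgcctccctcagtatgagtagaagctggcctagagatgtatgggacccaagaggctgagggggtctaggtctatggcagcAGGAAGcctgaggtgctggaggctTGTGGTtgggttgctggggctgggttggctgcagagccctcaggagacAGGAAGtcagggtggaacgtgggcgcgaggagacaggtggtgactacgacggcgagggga
Lck downstream window: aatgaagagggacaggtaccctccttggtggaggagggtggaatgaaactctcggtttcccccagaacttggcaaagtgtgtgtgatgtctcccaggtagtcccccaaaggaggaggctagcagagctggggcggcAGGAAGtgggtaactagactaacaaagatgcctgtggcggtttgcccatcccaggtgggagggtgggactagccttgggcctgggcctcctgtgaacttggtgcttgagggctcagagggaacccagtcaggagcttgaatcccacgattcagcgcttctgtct

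The window table matched 6 of the 10 genes, with 7 windows in all since *Lck* has 2, and windows of *Cd4*, *Cd8b1*, *Cd69* and *Cd2* were not analysed here. The Ets letters were in 5 of these 7 windows, and 35.4% of all 32851 windows searched hold them. *Cd3d* and *Cd3e* each carried them at 2 places, with a match first base at -5 from the start in *Cd3d* and at -17 in *Cd3e*. *Cd247* also carried 2 matches, and the *Cd3g* and *Cd8a* windows carried none. The Runx letters were in 1 of the 7 windows, the upstream window of *Lck*, against 16.8% of all windows. The GATA letters AGATAA were in 1 window, that of *Cd3g*, against 11.2% of all windows, and the TATA letters TATAAA were in 0 of 7 against 13.6%. E-box letters, CANNTG, were in all 7 windows and in 72.3% of all windows. All letters were searched on both strands, and these matches describe the sequence only. The start sites of the *Lck* windows are 15269 bases apart, and the counts used here are summed over the gene, so they do not separate the promoters.

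Between 17156991 and 21603487 rounded counts were available per mouse, of which the 10 genes took between 0.00048% and 0.00306%. Mitochondrially encoded genes took 8.50% to 22.7% of the counts in HFD-fed and 3.87% to 13.8% in LFD-fed mice, more in the HFD-fed mouse of each same-numbered pair. The tissue label was checked against 12 brown adipocyte markers, which were all detected, with a summed level of 6140 to 13400 TPM (a level per gene length, scaled to the same total in each mouse) in HFD-fed and 3580 to 13100 TPM in LFD-fed mice. Most of that sum in LFD replicate 2 came from *Fabp4* and *Adipoq*, which all adipocytes express. Other markers went different ways there, and are named after their values were seen. *Cidea*, *Elovl3* and *Dio2*, at 18.85, 0.71 and 1.92 TPM, were the lowest of all mice. *Adrb3*, at 108.41 TPM, was the highest of all mice, and *Ppargc1a* and *Prdm16*, at 7.45 and 3.79 TPM, the highest of the LFD-fed mice. *Cox8b* and *Cox7a1*, at 388.1 and 125.26 TPM, lay between the other LFD-fed mice. *Ucp1*, the uncoupling protein that defines brown adipocytes, was at 796 to 4021 TPM in HFD-fed mice but at 443, 11.03 and 75.98 TPM in LFD replicates 1, 2 and 3. The 12 skeletal muscle markers summed to 17.8 to 231 TPM in HFD-fed and 2020 to 13900 TPM in LFD-fed mice, and the part that these differences in tissue makeup have in the values below was not tested. In bulk tissue, fewer T cells and less of an RNA per T cell cannot be told apart.

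Across the 10 genes, the summed counts were 301, 484 and 590 in HFD replicates 1, 2 and 3 and 101, 282 and 183 in LFD replicates 1, 2 and 3. LFD replicate 1 had the fewest, and in these unscaled counts the lowest HFD-fed mouse lay just above the highest LFD-fed mouse. Scaled to library size with no further normalization, that order was reversed. HFD replicate 1 was then at 13.9 CPM and LFD replicate 2 at 14.4 CPM, so the diets overlapped. Per length, HFD replicates 1 to 3 summed to 10.2, 23.1 and 26.3 TPM. LFD replicates 1 to 3 summed to 3.26, 15.4 and 11.8 TPM, so on this scale the diets overlapped too. All 10 genes had a positive log2 fold change of HFD over LFD in the fitted model, with a median of 0.96 over the 9 tested genes and 1.08 over all 10. For comparison, the median of all tested genes was -0.05, and 45.6% of them were positive. In normalized counts (CPM, counts scaled to library size, after TMM normalization), 6 of the 10 genes were higher in each HFD-fed mouse than in any LFD-fed mouse, namely *Cd3d*, *Cd3e*, *Cd3g*, *Lck*, *Cd2* and *Cd69*, where 6.72% of all tested genes had such a separation. In TPM, 3 genes were separated, *Cd3e*, *Cd3g* and *Cd69*, where the share of all tested genes was 1.65%.

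**Figure D1:**
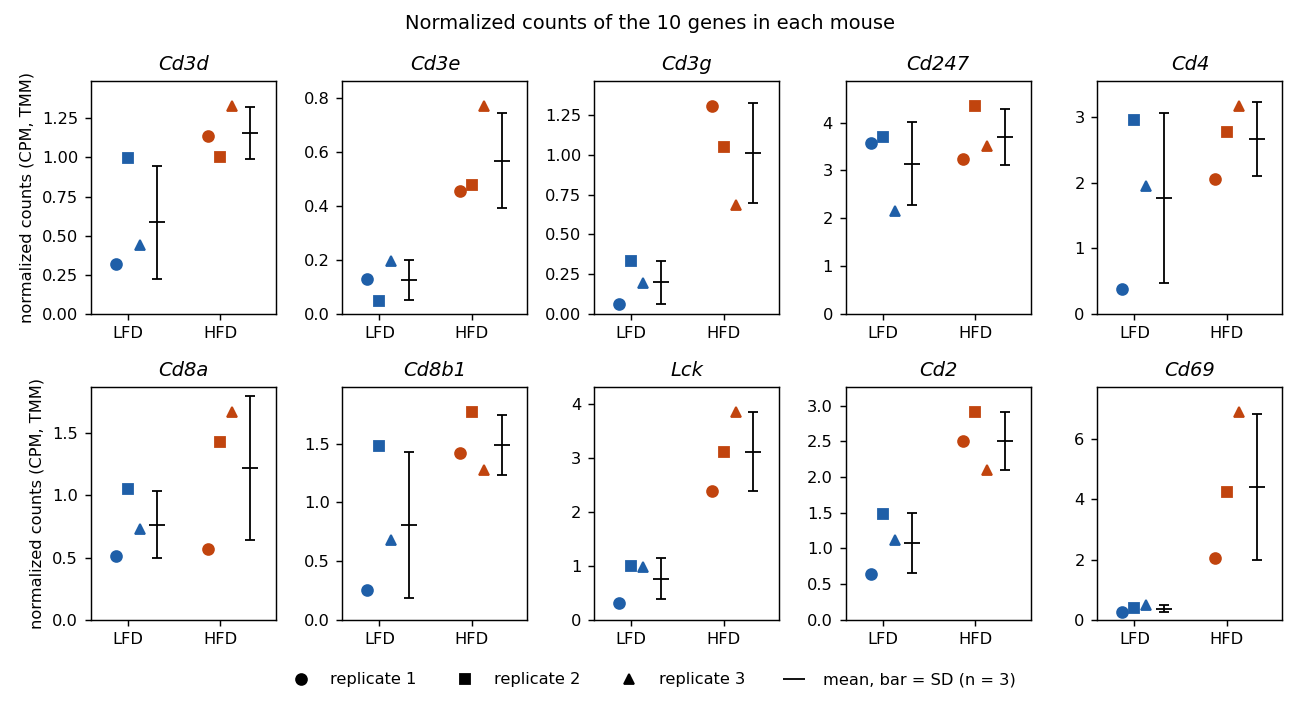
Normalized counts (CPM after TMM normalization, vertical axes from 0, scaled per gene) of the 10 genes in the 3 LFD-fed and 3 HFD-fed mice, with the marker shape giving the replicate number and the bar the mean and SD. *Cd3e*, *Cd3g*, *Lck*, *Cd2* and *Cd69* lie apart between the diets, *Cd3d* only by the distance from 0.999 to 1.00 CPM, and the other 4 genes overlap.

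The chains of CD3 differed in how far the diets lay apart. *Cd3g* (ENSMUSG00000002033, GRCm38 chromosome 9, 44969572 to 44980431, minus strand) encodes the gamma chain of CD3. It had 23, 22 and 16 counts in HFD replicates 1, 2 and 3 and 1, 7 and 4 counts in LFD replicates 1, 2 and 3. Each HFD-fed mouse was higher, at 1.01 ± 0.313 CPM (SD, n = 3) against 0.197 ± 0.135 CPM (SD, n = 3), which is 5.14 times the LFD mean. The fitted log2 fold change was 2.28 with a standard error of 0.61. Among the HFD-fed mice, replicate 3 was the lowest in CPM of *Cd3g*, as it was for *Cd8b1* and *Cd2*, while it was the highest for 6 of the other genes.

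*Cd3e* (ENSMUSG00000032093, chromosome 9, 44998740 to 45009627, minus strand) encodes the epsilon chain, which pairs with both the gamma and the delta chain. Its counts were 8, 10 and 18 in HFD replicates 1 to 3 and 2, 1 and 4 in LFD replicates 1 to 3, which was below the filter on low counts. The lowest HFD count of 8 has an exact Poisson 95% interval of 3.45 to 15.8, and the highest LFD count of 4 one of 1.09 to 10.2. So the diets did not overlap in *Cd3e*, but the intervals of the nearest mice did, and these intervals cover counting error only. The means were 0.568 ± 0.176 and 0.124 ± 0.0739 CPM (SD, n = 3 each), and a fit without the filter gave a log2 fold change of 2.16 with a standard error of 0.75.

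*Cd3d* (ENSMUSG00000032094, chromosome 9, 44981786 to 44987339, plus strand), the gene of the delta chain, had 20, 21 and 31 counts in HFD replicates 1 to 3 and 5, 21 and 9 counts in LFD replicates 1 to 3. HFD replicate 2 and LFD replicate 2 thus had the same count, and their 1.00 and 0.999 CPM differed by less than 1 read. The log2 fold change of *Cd3d* was 0.96 with a standard error of 0.52, and 1.58 without LFD replicate 2. The ratio of *Cd3g* to *Cd3d* counts was 0.516 to 1.15 in HFD-fed and 0.2 to 0.444 in LFD-fed mice. Since the smallest of these counts is 1, the LFD ratios are imprecise.

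*Cd247* (ENSMUSG00000005763, chromosome 1, 165788681 to 165877277, plus strand) encodes the zeta chain, which carries most of the signalling motifs of the complex and also serves activating receptors of natural killer (NK) cells. It had 57, 91 and 82 counts in HFD replicates 1 to 3 and 56, 78 and 44 counts in LFD replicates 1 to 3. The diets overlapped, with 3.70 ± 0.578 and 3.14 ± 0.866 CPM (SD, n = 3 each) and a log2 fold change of 0.24 with a standard error of 0.36. That value was 0.02 without LFD replicate 3, 0.10 without HFD replicate 2 and 0.37 without LFD replicate 2. The zeta chain gene therefore stood apart from the gamma chain gene, and in LFD replicate 1 it had 56 counts where *Cd3g* had 1. Of the 5329 exon bases of *Cd247*, 3213 overlap exons of other genes, 3007 of them those of *Pou2f1* on the opposite strand, a broadly expressed transcription factor gene at a mean of 4.47 TPM. RSEM, the program behind the counts, gave these *Cd247* counts a posterior SD of 4.65 to 7.50 reads. Whether the counting used the strand is not given in the sources used here, so reads of *Cd247* and of *Pou2f1* in the shared exons cannot be told apart.

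The co-receptor genes overlapped between the diets. *Cd4* (ENSMUSG00000023274, chromosome 6, 124864692 to 124888221, minus strand), the co-receptor of helper and regulatory T cells, which some dendritic cells also carry, had 36, 58 and 74 counts in HFD replicates 1 to 3 and 6, 62 and 40 counts in LFD replicates 1 to 3. LFD replicate 1 was far below the other mice, and LFD replicate 2 lay within the HFD range. The means were 2.66 ± 0.568 and 1.76 ± 1.29 CPM (SD, n = 3 each), and the log2 fold change of 0.58 (standard error 0.67) was 0.12 without LFD replicate 1 and 1.17 without LFD replicate 2. In TPM the means of *Cd4* were 2.48 ± 1.52 and 2.46 ± 2.11 (SD, n = 3 each). The gene length that RSEM used for *Cd4* ran from 1109 bases in HFD replicate 2 to 3108 bases in LFD replicate 1, which moves its TPM relative to its counts.

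*Cd8a* and *Cd8b1* encode the alpha and beta chains of the co-receptor of cytotoxic T cells, where an alpha pair without beta is also found on other lymphocytes and on some dendritic cells. They are neighbours on chromosome 6, with *Cd8b1* (ENSMUSG00000053044) at 71322788 to 71337494 and *Cd8a* (ENSMUSG00000053977) at 71373427 to 71379173, both on the plus strand and 35933 bases apart. *Cd8a* had 10, 30 and 39 counts in HFD replicates 1 to 3 and 8, 22 and 15 counts in LFD replicates 1 to 3. HFD replicate 1 lay within the LFD range of *Cd8a*, and the means were 1.22 ± 0.579 and 0.763 ± 0.269 CPM (SD, n = 3 each). *Cd8b1* had 25, 37 and 30 counts in HFD replicates 1 to 3 and 4, 31 and 14 counts in LFD replicates 1 to 3. LFD replicate 2 lay inside the HFD range of *Cd8b1*, whose means were 1.49 ± 0.250 and 0.805 ± 0.619 CPM (SD, n = 3 each). The log2 fold changes were 0.68 with a standard error of 0.54 for *Cd8a* and 0.87 with a standard error of 0.62 for *Cd8b1*. With 1 mouse left out, *Cd8a* ranged from 0.39 without HFD replicate 3 to 1.01 without HFD replicate 1, with 0.46 without LFD replicate 1. *Cd8b1* was 0.46 without LFD replicate 1 and 1.63 without LFD replicate 2. The ratio of *Cd4* to *Cd8a* counts was 1.90 to 3.60 in HFD-fed and 0.75 to 2.82 in LFD-fed mice, so the balance of the co-receptor genes overlapped as well.

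*Lck* (ENSMUSG00000000409, chromosome 4, 129548344 to 129573641, minus strand), the kinase that the co-receptors bring to the complex, had 42, 65 and 90 counts in HFD replicates 1 to 3 and 5, 21 and 20 counts in LFD replicates 1 to 3. The diets did not overlap in counts or in CPM, at 3.12 ± 0.731 and 0.765 ± 0.386 CPM (SD, n = 3 each), a fold of 4.07. The log2 fold change was 2.00 with a standard error of 0.51, and 1.65 to 2.23 with 1 mouse left out. In TPM, HFD replicate 1 at 1.15 lay below LFD replicate 3 at 1.35, so the separation of *Lck* was lost on that scale. RSEM set the length of *Lck* at 1735 bases in that HFD-fed and 1311 bases in that LFD-fed mouse. TPM is also scaled to the same total in each mouse. *Cd3e*, with a length of 1436 bases in all mice, went from 0.455 and 0.195 CPM in the same mice to 0.27 and 0.25 TPM. The parts of length and scaling were not separated.

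*Cd2* (ENSMUSG00000027863, chromosome 3, 101275899 to 101287939, minus strand), an adhesion and co-stimulatory receptor of T and NK cells, had 44, 61 and 49 counts in HFD replicates 1 to 3 and 10, 31 and 23 counts in LFD replicates 1 to 3. Each HFD-fed mouse was higher, with 2.50 ± 0.409 against 1.08 ± 0.420 CPM (SD, n = 3 each). The log2 fold change was 1.20 with a standard error of 0.43. In TPM, HFD replicate 1 at 2.54 lay below LFD replicate 2 at 2.73, and the diets overlapped.

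*Cd69* (ENSMUSG00000030156, chromosome 6, 129267325 to 129275436, minus strand), an early activation marker of lymphocytes that also marks resident T cells, lay furthest apart. Its counts were 36, 89 and 161 in HFD replicates 1 to 3 and 4, 8 and 10 in LFD replicates 1 to 3. The lowest HFD-fed mouse had more counts than the 3 LFD-fed mice together, and the HFD-fed mice themselves differed widely. The means were 4.40 ± 2.42 and 0.375 ± 0.117 CPM (SD, n = 3 each), a fold of 11.7. The log2 fold change was 3.52 with a standard error of 0.59, from 3.04 to 3.86 with 1 mouse left out, and 0.141% of all tested genes reached that value. HFD replicates 1 to 3 had 0.99, 3.93 and 6.52 TPM of *Cd69* and LFD replicates 1 to 3 had 0.13, 0.56 and 0.45 TPM, again without overlap.

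**Figure D2:**
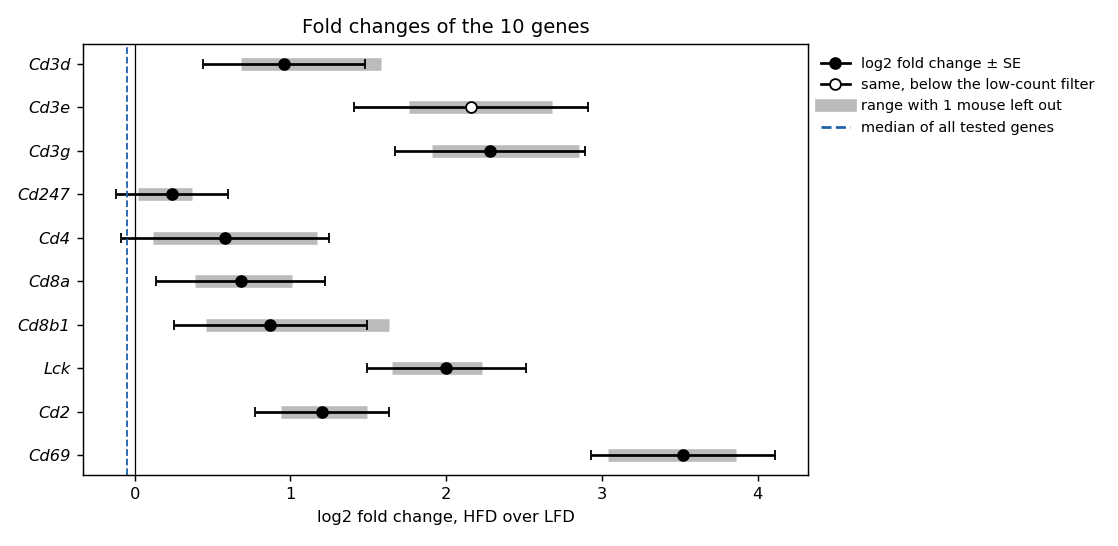
Log2 fold changes of HFD over LFD (horizontal axis) for the 10 genes, with points and bars for the fitted value and its standard error, grey bands for the range with 1 mouse left out, an open point for *Cd3e*, which was below the filter, and a dashed line for the median of all tested genes at -0.05. *Cd69*, *Cd3g*, *Cd3e* and *Lck* are at 2.00 or above, and *Cd247* is the lowest at 0.24.

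Ordered by level per length, *Cd69* had the highest mean in HFD-fed mice at 3.81 ± 2.77 TPM (SD, n = 3), followed by *Cd2*, *Lck*, *Cd4*, *Cd247*, *Cd3g*, *Cd8b1*, *Cd3d*, *Cd8a* and *Cd3e* at 0.497 ± 0.247 TPM (SD, n = 3). In LFD-fed mice *Cd4* had the highest mean at 2.46 ± 2.11 TPM, followed by *Cd247*, *Cd2*, *Cd8b1*, *Lck*, *Cd3d*, *Cd3g*, *Cd8a*, *Cd69* and *Cd3e* at 0.127 ± 0.108 TPM (SD, n = 3 each). The ranges of all neighbours in both orders overlapped. *Cd69* thus had the first place in 1 diet and the ninth in the other, while *Cd3e* was the lowest in both.

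The mice within a diet also differed. In log2 CPM, 8 of the 10 genes were lowest in LFD replicate 1. Also, 8 were higher in the HFD-fed mouse of all 3 same-numbered pairs, the exceptions being *Cd247* and *Cd4*, which were higher in 2 pairs. The share of all tested genes with either pattern was not counted, so neither number sets the 10 genes apart from other genes. Without LFD replicate 1, 6 of the 10 genes were separated, where 14.3% of all tested genes were. Without LFD replicate 2, 8 genes were separated, where 9.79% of all tested genes were. Only *Cd247* and *Cd2* had 10 or more counts in every mouse, so the other genes rest on fewer reads in at least 1 mouse.

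*Ptprc* encodes CD45, the phosphatase carried by all white blood cells, and had 3373, 4639 and 9591 counts in HFD replicates 1 to 3 and 425, 2987 and 2817 counts in LFD replicates 1 to 3. It was thus higher in each HFD-fed mouse in counts, and in log2 CPM as well, and lowest in LFD replicate 1, like most of the 10 genes. In TPM the diets overlapped in *Ptprc*, with HFD replicate 1 at 45.7 below LFD replicates 2 and 3 at 59.21 and 62.61. Relative to *Ptprc* counts, *Cd69* was at 1.07% to 1.92% in HFD-fed and 0.268% to 0.941% in LFD-fed mice, and did not overlap, where 0.492% of all tested genes were higher in each HFD-fed mouse on this scale. *Cd4* was at 0.772% to 1.25% in HFD-fed and 1.41% to 2.08% in LFD-fed mice, where 59.1% of all tested genes were lower in each HFD-fed mouse. The other 8 genes overlapped between the diets relative to *Ptprc*, including *Lck* at 0.938% to 1.40% and 0.703% to 1.18%, and *Cd3g* at 0.167% to 0.682% and 0.142% to 0.235%. *Ptprc* was taken as the denominator after its values had been seen.

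**Figure D3:**
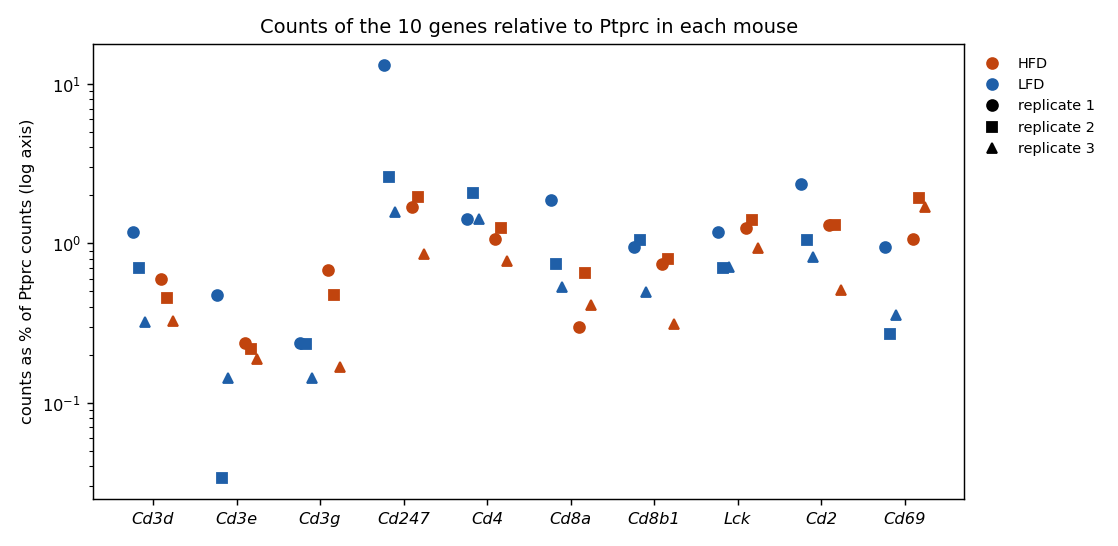
Counts of the 10 genes as a percent of the *Ptprc* counts of the same mouse (vertical axis, log scale), with colour for the diet and marker shape for the replicate number. *Cd69* is higher in the 3 HFD-fed mice at 1.07% to 1.92%, *Cd4* is lower at 0.772% to 1.25%, the other 8 genes overlap, and *Cd247* in LFD replicate 1 stands out at 13.2%.

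Around the 10 genes, 67 further genes of the T cell receptor pathway were listed by role, of which 52 had enough counts to be tested. With thresholds of 0.01 on the adjusted p and 1.5 on the absolute log2 fold change, edgeR's quasi-likelihood test called 0 of them higher and 0 lower in HFD-fed mice, and these calls were 0% of all 17668 tested genes too. At an unadjusted p under 0.05, 15 of the 52 genes were higher and 1 was lower, where 3.86% and 6.62% of all tested genes were. With the mice paired by replicate number, these counts were 22.0 and 1.0, and the shares of all tested genes 8.75% and 8.76%. In log2 CPM, 20 of the 52 were above and 1 was below in each HFD-fed mouse, where 6.72% and 9.23% of all tested genes were. Their median log2 fold change was 0.97, the smallest edgeR adjusted p was 0.174, and DESeq2 called 4 of them higher and 0 lower, where it called 0.531% and 1.53% of all the genes it tested. These lists were drawn up with earlier results of these data known, so the counts are a description and not independent evidence.

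The constant regions of the receptor chains had 4 of 7 genes tested, with a median log2 fold change of 1.72. *Trbc1* and *Trbc2*, the beta chain constant regions, had 39, 35 and 69 and 41, 47 and 60 counts in HFD replicates 1 to 3. In LFD replicates 1 to 3 they had 0, 13 and 10 and 1, 13 and 7 counts, so both were higher in each HFD-fed mouse. The log2 fold change was 2.56 for *Trbc1* and 2.74 for *Trbc2* (adjusted p = 0.383 and 0.215 in the edgeR fit). Both genes are near-identical copies, so the division of reads between them is uncertain. *Trac*, the alpha chain constant region (chromosome 14, 54220521 to 54224206), had a log2 fold change of -2.11 (edgeR adjusted p = 0.614), with 24, 29 and 23 counts in HFD replicates 1 to 3 and 222, 36 and 7 counts in LFD replicates 1 to 3. The 222 counts came from LFD replicate 1, the mouse in which the beta chain regions had 0 and 1 counts and the 10 genes together 101.

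Genes of proximal signalling had 18 of 22 members tested, with a median of 1.28 and a range from -1.37 to 2.66, and 10 of the 18 were above and 1 was below in each HFD-fed mouse, beside 6.72% and 9.23% of all tested genes. The 3 with the highest levels were *Ptprc* with a log2 fold change of 1.42 (edgeR adjusted p = 0.509), *Fyb*, an adaptor, with 1.04 (adjusted p = 0.473), and *Fyn*, a kinase related to *Lck* that many tissues express, with -0.55 (adjusted p = 0.770). *Fyn* was thus opposite in sign to *Lck*, and its mice overlapped between diets, at 25.4 ± 9.24 and 48.3 ± 37.3 TPM (SD, n = 3 each). Co-stimulatory, checkpoint and activation genes had 13 of 19 tested, with a median of 0.55, and 4 of them were above in each HFD-fed mouse, beside the same 6.72%. *Il7r*, a cytokine receptor chain of lymphocytes, had 12.1 ± 6.67 and 1.66 ± 1.57 TPM (SD, n = 3 each) and a log2 fold change of 3.25 (edgeR adjusted p = 0.266). *Cd44* and *Nr4a1*, the others of the 3 highest levels, had 0.55 and 0.21 (edgeR adjusted p = 0.924 and 0.927). *Nr4a1* is an immediate early gene of receptor signalling that other cells also induce, and its diets overlapped where those of *Cd69* did not.

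The ligands of these receptors had 6 of 7 genes tested, with a median of 0.23. *Cd48*, the ligand of CD2 in mice, had 41.1 ± 18.3 and 20.6 ± 15.3 TPM (SD, n = 3 each) and a log2 fold change of 1.37 (edgeR adjusted p = 0.409), and like *Cd2* it was higher in each HFD-fed mouse in log2 CPM. *Cd274*, which encodes PD-L1, had 1.06 and *Cd86*, a ligand of CD28, 0.21 (edgeR adjusted p = 0.484 and 0.900). Transcription factors of T cells had 11 of 12 tested, with a median of 0.64. *Zbtb7b* and *Ets1* had -0.13 and 0.89 (edgeR adjusted p = 0.962 and 0.413), and their diets overlapped. The genes that DESeq2 called higher were *Il2rb*, *Il7r*, *Skap1* and *Trbc2*, of which *Il2rb* and *Skap1* are named after their values were seen.

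**Figure D4:**
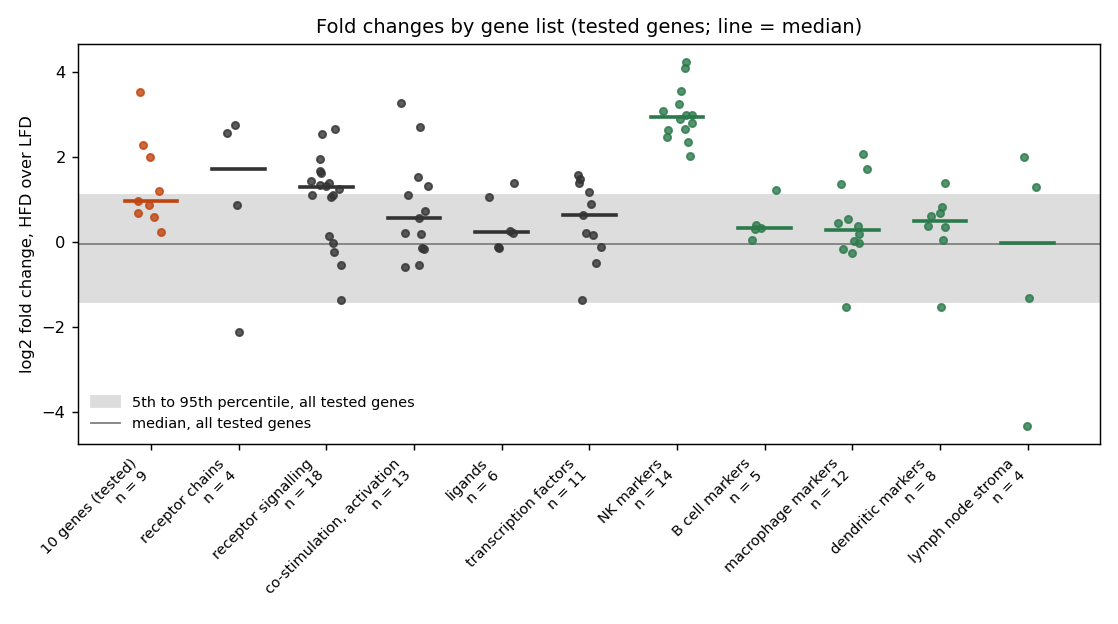
Log2 fold changes of HFD over LFD (vertical axis) of the tested genes of each list, 1 point a gene, with a bar at the median of the list, a grey band from the 5th to the 95th percentile of all tested genes (-1.42 to 1.11) and a grey line at their median. The 9 tested genes of the T cell receptor group have a median of 0.96, and the 14 NK cell markers, with a median of 2.93, lie above the band.

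Markers of other cells moved with these genes to different degrees. All 14 NK cell and cytotoxic markers were detected and tested, with a median log2 fold change of 2.93, and 14 of 14 were higher in each HFD-fed mouse, where 6.72% of all tested genes were. The count was also 14 without LFD replicate 1, where 14.3% of all tested genes were separated in this way. Several of them, such as *Gzmb*, *Ncr1* and *Prf1*, and also *Lck*, are in gene groups that the study picked on these same mice, so their direction is not independent evidence. The 14 markers summed to 27.9 to 78.1 TPM in HFD-fed and 1.34 to 14.9 TPM in LFD-fed mice. The edgeR test called 0 of the 14 at the thresholds above, while 14 had an unadjusted p under 0.05 (14.0 with the mice paired by replicate number) and DESeq2 called 9 higher. Among all genes, 3.86% were higher at that p, 8.75% were with the pairing, and DESeq2 called 0.531% higher. NK cells also express *Cd247*, *Cd2*, *Lck* and *Cd69*, and the part of NK cells in the values of these genes was not tested. *Gzma*, *Nkg7* and *Klrk1*, the 3 highest of the list and genes that cytotoxic T cells also use, had log2 fold changes of 3.23, 2.66 and 2.01 (edgeR adjusted p = 0.185, 0.182 and 0.311).

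Of the 8 B cell markers all were detected and 5 tested, with a median of 0.33 and *Cd79b*, *Ms4a1* and *Fcrla* at the highest levels, and they summed to 3.13 to 7.43 TPM in HFD-fed and 1.06 to 6.40 TPM in LFD-fed mice. The 12 macrophage markers, led by *Lyz2*, *C1qb* and *C1qa*, had a median of 0.28 and summed to 1980 to 4050 and 667 to 4630 TPM. The 8 dendritic cell markers, led by *Cd209a*, *Zbtb46* and *Itgax*, had a median of 0.48 and summed to 16.1 to 31.7 and 17 to 46.5 TPM. Markers of lymph node stroma had a median of -0.03 over the 4 tested of 7 genes, with *Cxcl13* and the 2 copies of *Ccl21a* at the highest levels, and 1 of the 7 was at 0 in all mice. They summed to 2.23 to 32.2 TPM in HFD-fed and 10.7 to 94.8 TPM in LFD-fed mice, mostly from *Cxcl13* in LFD-fed mice. *Cxcl13* was lower in each HFD-fed mouse, with a log2 fold change of -4.32 (edgeR adjusted p = 0.270). DESeq2 called *Cxcl13* lower (adjusted p = 0.000833), where it called 1.53% of all the genes it tested lower. The 2 copies of *Ccl21a* had 1.28 and 2.00 (edgeR adjusted p = 0.807 and 0.719), so the median hides opposite directions. These lists overlapped between the diets in their sums, but not in all of their genes. In log2 CPM, 3 of the 12 macrophage markers and 2 of the 8 dendritic cell markers were above in each HFD-fed mouse. In both of these lists 1 marker was below. Of the 5 tested B cell markers 1 was above, and of the 4 tested lymph node markers 1 was below. Among all tested genes, 6.72% were above and 9.23% below. The part of these lists in the values of the 10 genes was not tested.

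As a description of likeness, each tested gene outside the group was correlated over the 6 mice with the mean log2 CPM of the 9 tested genes. The highest Pearson r were those of *Gzma* (0.994), *Klrk1* and *Gm44205* (0.993 each), and *Ncr1* and *Il18r1* (0.992 each). The lowest were those of *Gpx8* (-0.988) and *Pomt2* (-0.990). The mice share their diets, libraries and depth in each pair of genes, and 136 of 17659 genes had an r above 0.95, so the likeness is not particular to the genes named.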

How the data were processed

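RNA from BAT of 3 LFD-fed and 3 HFD-fed mice was analysed, with diets and replicate numbers taken from the sample labels. Per the submitters' processing notes, the authors used Trimmomatic 0.36, RSEM 1.3.0, DESeq2 1.10.1 and the build GRCm38.p4. The authors deposited expected counts, which RSEM divides between genes that share reads, and TPM, which are scaled by gene length, together with gene lengths and posterior standard deviations of the counts. Expected counts were rounded to whole numbers. Fits used R 4.3.3 and edgeR 4.0.16 (quasi-likelihood test, TMM, filterByExpr, Benjamini-Hochberg over all tested genes), with the study's cutoffs of 0.01 on the adjusted p and 1.5 on the absolute log2 fold change for a call. Standard errors are the fold change over the square root of F. Log2 CPM used a prior count of 2. The common dispersion was 0.201. The fits were also run on simulated data, where recovery of changed genes was required only at a dispersion below the real one.

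The 10 genes and all gene lists were chosen with earlier results of these data known, and so were the motifs. Of each list the 3 genes with the highest mean TPM and any gene past the thresholds could be named, and for likeness the 5 highest and 2 lowest r. One such result is not reported here. Replicates were separate mice. Deviations from the diet mean correlated across genes at 0.498, 0.229 and 0.522 within the 3 same-numbered pairs, and at -0.528 to 0.0532 between mice of different numbers. The replicate numbers of the labels were therefore treated as pairing the mice in an alternative fit with a replicate block. The sources used here do not state that same-numbered mice are matched, so this pairing rests on the same values that the fit uses. Other alternatives were DESeq2 1.42.0, RLE factors, no normalization factors, other filters on low counts, looser thresholds, log2(TPM + 1), a prior count of 0.5 and each mouse left out. Positions come from GENCODE M21 and promoter windows from RefSeq.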

Additional observations from a re-analysis of the deposited data

How the results depend on the processing

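edgeR called 0 genes in the main fit and under each edgeR alternative run. In the main fit, 1851 genes had an unadjusted p under 0.05. The fold change of each of the 10 genes stayed positive in the alternatives that gave it a value, which leave out the filter of 10 counts in every mouse. DESeq2 gave other counts, with 412 genes past the thresholds (306 lower, 106 higher) and 4 genes of the pathway lists. With the replicate number as a block, which pairs the mice, edgeR called 0 genes and 0 pathway genes (smallest adjusted p 0.0102, 184 genes under 0.05, 3094 at an unadjusted p under 0.05), and the median log2 fold change of the T cell receptor genes was 1.06, so the block changed no call at the thresholds. That median was 0.96 over 9 genes at first and 0.33 on the log2(TPM + 1) scale. The added 1 shrinks differences of genes near or below 1 TPM, so that value is not on the scale of the fitted fold changes. *Cd3g*, at means of 1.81 and 0.497 TPM, was at 0.94 there and at 2.28 in the fit. With 1 mouse left out, the median was 0.68 to 1.6 (lowest without LFD replicate 1, highest without LFD replicate 2). It ran over 10 genes without LFD replicate 2 or 3, where *Cd3e* passed the filter, and over 9 without each other mouse. With the filter dropped as well, a choice made after seeing the data, it was 0.83 to 1.61. The number of separated genes went from 6 to 3 on log2(TPM + 1) and to 5 without normalization factors, and was 6 to 8 with 1 mouse left out. Among all tested genes the share was 6.72% at first and 1.65% in TPM, 14.3% without LFD replicate 1 and 9.79% without LFD replicate 2. It was not counted without normalization factors or without the other mice, so those numbers do not set the 10 genes apart. Other causes of the shifts in the median and in these numbers were not tested. The median of all tested genes was -0.05 with TMM, -0.04 with RLE, -0.01 without factors and -0.18 on log2(TPM + 1). Depth limits 8 of the 10 genes, which had fewer than 10 counts in at least 1 mouse, and *Cd3e* most.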
